A study of Rattus norvegicus with 12 samples.

Results

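The 10 genes studied here belong to the leucine-rich repeat synaptic organizers and were followed in cultured rat hippocampal neurons whose excitatory input had been blocked. They were taken by name: Lrrtm1, Lrrtm2, Lrrtm3 and Lrrtm4, Flrt1, Flrt2 and Flrt3, and Lrfn1, Lrfn2 and Lrfn5. Of the 10 genes, 9 had a probe that could be matched to a transcript and that lay above the filter on dim signal, among 21245 genes or unnamed targets tested. Lrrtm1 had no matched probe and was not analysed here.

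The blocked cultures received 50 µM GYKI-52466, an antagonist of AMPA-type glutamate receptors, together with 10 µM MK-801, which blocks the channel of NMDA-type receptors. Blockade lasted 9 h or 26 h, and each time had untreated cultures of its own. Each of the 4 groups held 3 independent cultures, measured on 3 single-colour Agilent arrays. All were primary cultures from the hippocampus of Wistar rats at embryonic day 18, kept for 14 to 15 days in a medium that held glutamate during the first week. The labels name no genetic change and no selection of 1 cell type.

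All members are membrane proteins with a row of leucine-rich repeats outside the cell, and they help to build or hold synapses by binding partners across the cleft. LRRTM proteins sit on the postsynaptic side of excitatory synapses, where they bind presynaptic neurexins or heparan sulfate proteoglycans and help to keep AMPA receptors in place. FLRT proteins bind latrophilins and UNC5 receptors and act in axon guidance as well as in synapse formation. The Lrfn genes encode the SALM proteins, of which several bind the scaffold PSD-95 inside the spine. In bulk RNA, a change in the share of a cell type and a change in RNA per cell cannot be told apart.

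Levels are given as the signal of a probe in percent of the 75th percentile signal of its array, and differences as log2 of blocked over untreated cultures, with a threshold of 0.05 on the Benjamini-Hochberg adjusted p of limma over all 21245 targets. A level can be set against another level of the same gene, and not against that of another gene, since probes differ in brightness. All 11 kept probes of the 9 members were well above background on all 12 arrays, and none was saturated. Scan day crossed the groups: day 1 held the arrays of the blocked 26 h group and the untreated 9 h group, and day 2 held the other two groups. The average of the blockade effects at both times is therefore balanced over days, whereas the effect at either time alone compares arrays of different days. As a check of the labels, Bdnf, a neurotrophin gene that synaptic activity switches on, fell by 2.60 on the log2 scale (SE 0.105, limma adjusted p = 3.898e-06). Of 9 measured activity genes, 8 fell in the average over both times.

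Over both times, blockade raised 2 of the 9 measured members, Flrt3 and Lrrtm2. The count was 4 with the replicate number as a block, which added Lrfn2 and Lrfn5, and 0 without the arrays of replicate 2. The calls over all targets moved too, from 945 to 2799 with the replicate block and to 36 without replicate 2. Flrt3 averaged 1.82-fold and Lrrtm2 1.53-fold the level of untreated cultures. No member fell in this comparison with limma; at an unadjusted p under 0.05 the count was 6 higher and 0 lower. Over all targets, 2.23% were called higher and 2.22% lower at the adjusted threshold, and no share over all targets at the unadjusted p is given here. The median effect was 0.23 log2 over the 9 members, against -0.02 over all targets.

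Flrt3, which encodes a latrophilin ligand, showed the largest difference among the members. Its signal was 135.8%, 112.6% and 96.3% in blocked cultures at 9 h, against 110.3%, 88.6% and 79.2% in untreated cultures at 9 h. It was 173.5%, 184.8% and 137.0% in blocked cultures at 26 h, against 78.8%, 58.0% and 50.1% in untreated cultures at 26 h. The groups overlapped at 9 h and were fully apart at 26 h, and the blocked culture was the higher one in 6 of 6 pairs of the same replicate number. The average effect was 0.86 log2 (SE 0.145, 95% confidence interval 0.54 to 1.19, limma adjusted p = 0.00854).

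Within each scan day, Flrt3 was higher in the blocked group than in the untreated group of the other time. Blocked 26 h exceeded untreated 9 h cultures by 0.83 log2 on day 1, and blocked 9 h exceeded untreated 26 h cultures by 0.89 log2 on day 2. Both of these differences also mix blockade with time. They are the average effect plus and minus the time effect of Flrt3 (-0.03 log2), so their likeness only restates that this time effect was small. At 26 h the effect was 1.42 log2, or 2.68-fold (limma adjusted p = 0.00262). At 9 h it was 0.31 log2 and was not called (adjusted p = 0.337), although the fit with the replicate number as a block called it (adjusted p = 0.0421). The order of the Flrt3 levels was blocked 26 h, blocked 9 h, untreated 9 h and untreated 26 h, each step being larger than the SD of either neighbour.

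Lrrtm2, a neurexin ligand known for stabilising AMPA receptors, was also highest in blocked cultures at 26 h. Its signal was 27.6%, 25.8% and 22.1% in blocked cultures at 9 h, against 19.0%, 20.1% and 17.1% in untreated cultures at 9 h. It was 42.9%, 41.5% and 35.4% in blocked cultures at 26 h, against 28.6%, 20.1% and 20.4% in untreated cultures at 26 h. Blocked and untreated arrays did not overlap at either time, and the blocked culture was higher in 6 of 6 pairs. The average effect was 0.61 log2 (SE 0.109, 95% confidence interval 0.37 to 0.86, limma adjusted p = 0.0109).

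The time at which Lrrtm2 rose depended on the probe. The brighter probe called a rise of 0.81 log2 at 26 h (limma adjusted p = 0.00772) and gave 0.42 log2 at 9 h (adjusted p = 0.0786, 0.0159 with the replicate block and 0.033 without replicate 1 of the untreated 26 h group). The mean of both probes gave 0.37 log2 at 26 h (adjusted p = 0.0912). The dimmer probe read 9.38%, 11.4% and 9.41% in blocked cultures at 9 h, against 4.57%, 3.61% and 4.05% in untreated cultures at 9 h. It read 7.91%, 8.35% and 7.15% in blocked cultures at 26 h, against 9.50%, 8.34% and 6.88% in untreated cultures at 26 h. The dimmer probe thus separated the groups at 9 h alone, by 1.30 log2 (adjusted p = 7.472e-04), and gave -0.07 log2 at 26 h (adjusted p = 0.798). Both probes agreed on the average over times, with 0.62 log2 for the dimmer one (adjusted p = 0.0082). Which transcripts of Lrrtm2 each probe reads was not tested.

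Calls on both genes were lost with fewer arrays. Without the 4 arrays of replicate 2, the average effects were 0.79 log2 for Flrt3 (limma adjusted p = 0.401) and 0.57 log2 for Lrrtm2 (adjusted p = 0.395), and 36 targets in all were called, against 945 with all arrays. Without those of replicate 3, Lrrtm2 had an adjusted p of 0.0817. No member was called in any of the 5 comparisons without replicate 2. Without replicate 3 the calls at 26 h were lost for Lrrtm2 (adjusted p = 0.0727) and for Lrrtm4 (adjusted p = 0.0836).

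The stretches before the annotated starts of both genes that rose are shown because they differ in a sequence tied to activity-dependent transcription. Each line gives the 250 bases before the start of the gene in RefSeq (rat build GRCr8, read 5′ to 3′ on the gene's strand), and capitals mark matches to the searched motifs CRE, CRE core, AP-1 and TATA box. Lrrtm2 lies on the minus strand at chr18:27096968-27097217, and Flrt3 on the minus strand at chr3:148461406-148461655.
Lrrtm2: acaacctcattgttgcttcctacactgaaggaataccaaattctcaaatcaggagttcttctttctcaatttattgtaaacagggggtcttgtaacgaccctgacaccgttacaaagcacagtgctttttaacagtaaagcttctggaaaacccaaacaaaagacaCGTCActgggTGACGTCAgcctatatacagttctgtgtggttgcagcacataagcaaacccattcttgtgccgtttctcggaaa
Flrt3: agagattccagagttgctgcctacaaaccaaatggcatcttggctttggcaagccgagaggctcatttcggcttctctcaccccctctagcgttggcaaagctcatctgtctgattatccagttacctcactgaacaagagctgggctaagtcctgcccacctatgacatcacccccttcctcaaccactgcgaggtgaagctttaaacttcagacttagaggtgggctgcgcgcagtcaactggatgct

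The Lrrtm2 stretch held 1 full CRE, the site TGACGTCA known to bind CREB, starting 74 bases before the gene's start, and 3 matches to the CRE core TGACG, of which 2 lie inside the full site. Of 33469 rat promoter windows of 250 bases, 1.59% held a full CRE on either strand and 18.2% the core. Flrt3 had neither, nor a match to AP-1 (TGANTCA, in 6.34% of windows) or to a TATA box (TATAAA, in 12.9%). Over all 10 members, a full CRE was found in Lrrtm2 alone, Flrt1 had a CRE core, Lrrtm4 and Lrfn2 had an AP-1 match each, and none had a TATA box. E-boxes (CANNTG, in 65.5% of windows) were counted on both strands too and were present in 7 of the 10 members, among them Flrt3 with 3. A match describes letters in these windows and is no measured site. A link between these matches and the blockade effects was not tested.

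**Figure D1:**
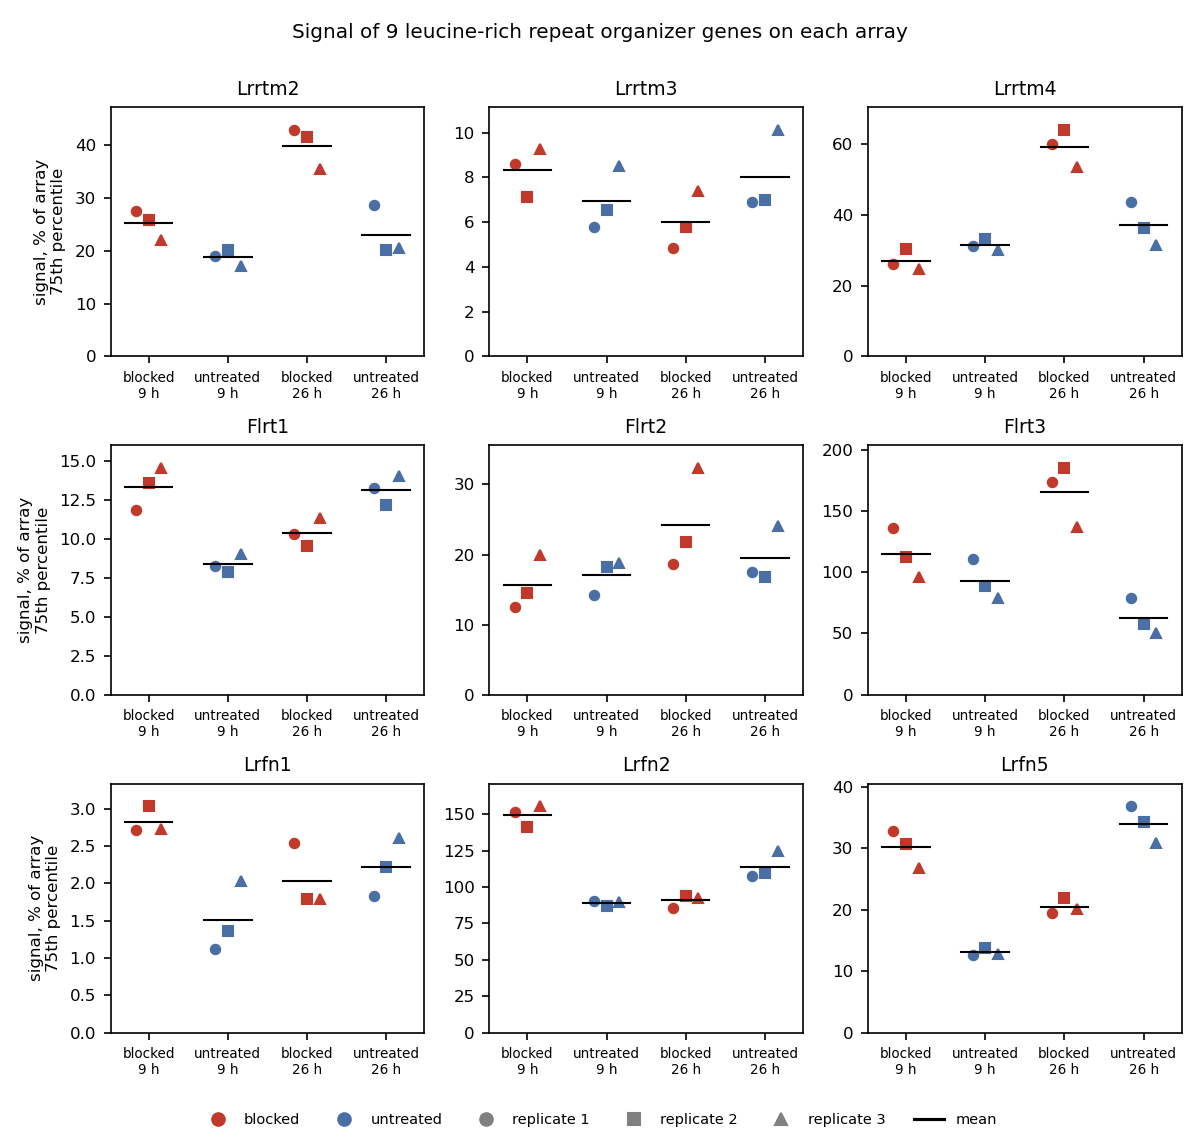
Signal of the 9 measured members on each array, in percent of the array's 75th percentile signal (vertical axes start at 0), in the 4 groups. Symbols are the 3 replicates and bars the group means. Flrt3 and Lrrtm2 are highest after 26 h of blockade, whereas Lrfn5 is highest after 9 h of blockade and in untreated cultures of 26 h.

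Lrrtm4, a postsynaptic partner of heparan sulfate proteoglycans, rose at 26 h by its brighter probe. The signal was 26.0%, 30.3% and 24.7% in blocked cultures at 9 h, against 31.2%, 33.2% and 30.2% in untreated cultures at 9 h. It was 60.1%, 64.0% and 53.6% in blocked cultures at 26 h, against 43.6%, 36.2% and 31.4% in untreated cultures at 26 h. The groups overlapped at 9 h, where the effect was -0.23 log2 (limma adjusted p = 0.275), and were apart at 26 h, where it was 0.68 log2 (adjusted p = 0.00889). The average over both times was 0.23 log2 (adjusted p = 0.26).

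The other kept probe of Lrrtm4 did not follow. Its mean signal was 5.88% ± 0.832 in blocked and 6.35% ± 0.926 in untreated cultures at 9 h, and 5.82% ± 0.784 in blocked and 5.96% ± 0.904 in untreated cultures at 26 h (SD, n = 3 each). All 4 groups overlapped, and the effect at 26 h was -0.03 log2 (limma adjusted p = 0.924). The rise of Lrrtm4 is therefore a result of 1 of its 2 probes.

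**Figure D2:**
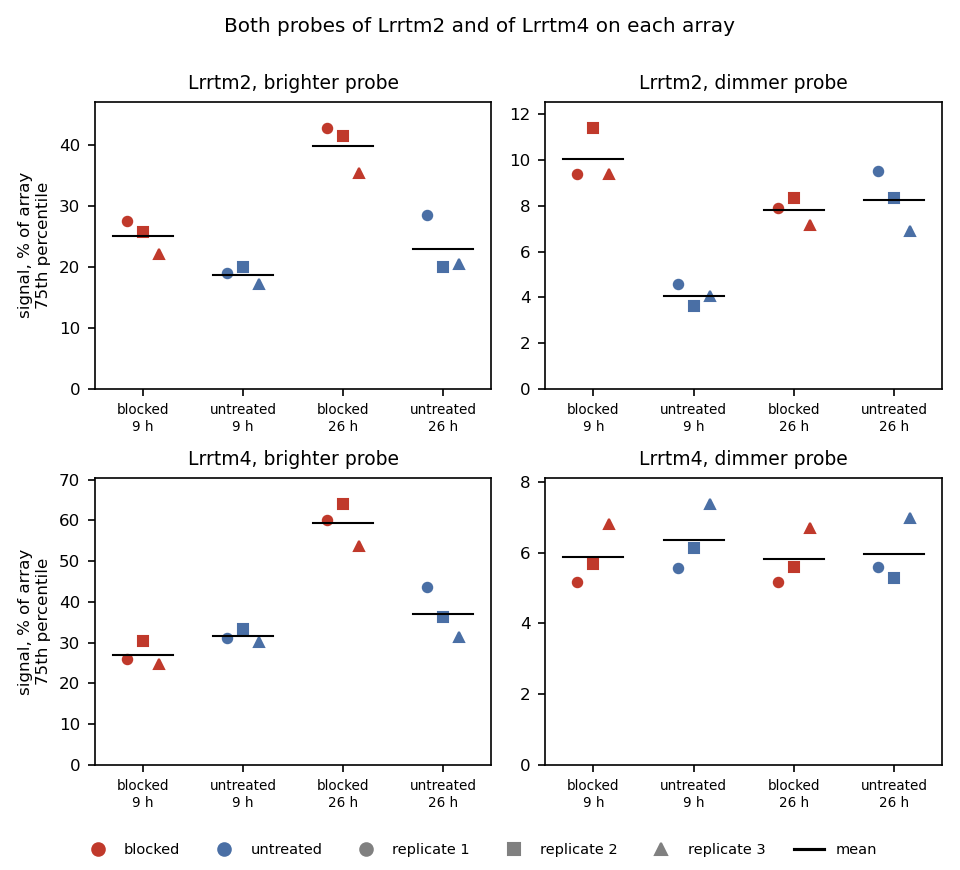
Signal of both kept probes of Lrrtm2 (top) and Lrrtm4 (bottom) on each array, in percent of the array's 75th percentile signal, with the brighter probe left, in the 4 groups. Points are arrays and bars group means. For Lrrtm2 the brighter probe is highest after 26 h of blockade and the dimmer one after 9 h, and for Lrrtm4 the dimmer probe stays between 5.16% and 7.37% on all arrays.

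Lrrtm3, whose product also binds neurexins and heparan sulfate proteoglycans, was not called in any of the 5 comparisons. Its signal was 8.58%, 7.11% and 9.29% in blocked cultures at 9 h, against 5.77%, 6.53% and 8.50% in untreated cultures at 9 h. It was 4.83%, 5.76% and 7.37% in blocked cultures at 26 h, against 6.90%, 7.0% and 10.1% in untreated cultures at 26 h. The groups overlapped at both times, and replicate 3 was the highest in each of the 4 groups. The effect was -0.07 log2 on average (95% confidence interval -0.41 to 0.26), 0.27 log2 at 9 h (limma adjusted p = 0.423) and -0.42 log2 at 26 h (adjusted p = 0.21, and 0.0232 with the replicate block).

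All 3 SALM genes among the members rose at 9 h, and 2 of them fell at 26 h. Among the SALM genes outside the members, looked up after their values were seen, Lrfn3 rose by 0.86 log2 at 9 h (limma adjusted p = 6.155e-04) and fell by 0.815 log2 at 26 h (adjusted p = 8.807e-04), whereas Lrfn4 gave -0.11 and -0.09 log2 and was not called. At 9 h, 4 of 9 members rose, namely Lrfn5, Lrfn1, Lrfn2 and Flrt1, and none fell (0 at an unadjusted p under 0.05 too), against 11.4% of all targets called higher and 9.64% called lower. At 26 h, 3 members rose (Flrt3, Lrrtm2 and Lrrtm4) and 2 fell (Lrfn5 and Lrfn2), against 6.88% called higher and 9.48% called lower over all targets. The median effect of the members was 0.42 log2 at 9 h and -0.13 log2 at 26 h, against 0.02 and -0.05 log2 over all targets.

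Lrfn5 encodes SALM5, a ligand of presynaptic receptor phosphatases of the LAR type. Its signal was 32.9%, 30.8% and 26.8% in blocked cultures at 9 h, against 12.7%, 13.8% and 12.8% in untreated cultures at 9 h. It was 19.5%, 21.8% and 20.2% in blocked cultures at 26 h, against 36.8%, 34.3% and 30.8% in untreated cultures at 26 h. The groups were apart at both times and in opposite order: the effect was 1.20 log2 at 9 h (SE 0.108, limma adjusted p = 3.125e-04) and -0.73 log2 at 26 h (adjusted p = 0.00288). The average, 0.24 log2, was not called (adjusted p = 0.13, and 0.0402 with the replicate block).

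Lrfn2, which encodes SALM1, a partner of PSD-95, moved in the same way with less change at 26 h. Its signal was 151.3%, 141.4% and 155.4% in blocked cultures at 9 h, against 90.3%, 87.1% and 89.4% in untreated cultures at 9 h. It was 85.7%, 94.0% and 92.8% in blocked cultures at 26 h, against 107.5%, 109.4% and 124.4% in untreated cultures at 26 h. No groups of a time overlapped, and the effects were 0.75 log2 at 9 h (limma adjusted p = 8.545e-04) and -0.32 log2 at 26 h (adjusted p = 0.0362). The call at 26 h was lost with median scaling (adjusted p = 0.0765), in the deposited log2 values (adjusted p = 0.101) and with no filter on dim probes (adjusted p = 0.0563). It was also lost without each of 5 single arrays, untreated 26 h replicates 2 and 3 and blocked 26 h replicates 1, 2 and 3 (adjusted p = 0.0738 to 0.128). The average was 0.21 log2 (adjusted p = 0.105, and 0.0353 with the replicate block).

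Lrfn1, which encodes SALM2, rose at 9 h. Its signal was 2.71%, 3.03% and 2.72% in blocked cultures at 9 h, against 1.12%, 1.36% and 2.03% in untreated cultures at 9 h. It was 2.53%, 1.79% and 1.79% in blocked cultures at 26 h, against 1.83%, 2.23% and 2.61% in untreated cultures at 26 h. The groups were apart at 9 h, with an effect of 0.95 log2 (limma adjusted p = 0.0144), and overlapped at 26 h, with -0.13 log2 (adjusted p = 0.745). With normexp background correction the effect at 9 h was 0.52 log2 (adjusted p = 0.045). The call at 9 h was lost without replicate 2 of either 9 h group, where the adjusted p was 0.053 without the blocked array and 0.0517 without the untreated one.

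Flrt1, an FLRT family member found in brain, behaved like the SALM genes rather than like Flrt3 in its order of groups. Its signal was 11.9%, 13.6% and 14.5% in blocked cultures at 9 h, against 8.23%, 7.87% and 9.03% in untreated cultures at 9 h. It was 10.3%, 9.56% and 11.3% in blocked cultures at 26 h, against 13.3%, 12.1% and 14.0% in untreated cultures at 26 h. The groups were apart at both times, with an effect of 0.67 log2 at 9 h (limma adjusted p = 0.00327) and of -0.34 log2 at 26 h, which was not called (adjusted p = 0.0651, and 0.0132 with the replicate block).

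Lrfn1, Lrfn2 and Flrt1 had their highest mean after 9 h of blockade and the next in the untreated 26 h group, and Lrfn5 had these groups in the reverse order. Both are the groups scanned on day 2. For Flrt1 these highest groups differed by 0.02 log2, less than their SD of 0.15 log2, and for Lrfn2 the lowest groups differed by 0.03 log2, less than their SD of 0.07 log2. For Lrfn1 the untreated 26 h group exceeded the blocked 26 h group by 0.13 log2, less than the larger SD of 0.29 log2. The place of the untreated 26 h group is thus not settled for Lrfn1. The difference between the blockade effects at 26 h and at 9 h is the same sum as day 1 against day 2, so in these data a blockade effect that changes with time and a shift between scan days cannot be told apart. In that comparison 2 members were called higher (Flrt3 and Lrrtm4) and 4 lower (Lrfn5, Lrfn2, Lrfn1 and Flrt1), against 12.7% of all targets called higher and 15.9% called lower.

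Within days, the differences between blocked and untreated cultures of the 4 genes were smaller than those within 9 h. Blocked 26 h over untreated 9 h cultures (day 1) gave 0.65 log2 for Lrfn5, 0.46 log2 for Lrfn1, 0.31 log2 for Flrt1 and 0.03 log2 for Lrfn2. Blocked 9 h over untreated 26 h cultures (day 2) gave -0.17 log2 for Lrfn5, 0.36 log2 for Lrfn1, 0.02 log2 for Flrt1 and 0.39 log2 for Lrfn2. These differences mix blockade with time and were not tested. For Lrrtm2 the brighter probe gave 1.09 log2 on day 1 and 0.14 log2 on day 2, and Lrrtm4 gave 0.91 log2 and -0.45 log2.

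Some neuron markers were called higher in blocked cultures at 9 h, a comparison of arrays of different scan days. The summed signal of 11 neuron markers ran from 3959% to 4651% in blocked cultures at 9 h, against 3112% to 4116% in untreated cultures at 9 h, with overlap. Of the 11 markers 5 rose and 6 were not called at 9 h, against 11.4% of all targets called higher. Tubb3 gave 0.03 and Slc32a1 -0.19 log2. The sum ran from 3426% to 3971% in blocked cultures at 26 h, against 3215% to 4709% in untreated cultures at 26 h. There 1 of the 11 fell, against 9.48% of all targets called lower. In the average over both times 2 neuron markers were called higher, Neurod6 by 0.55 log2 (adjusted p = 0.0109) and Slc17a7 by 0.52 log2 (adjusted p = 0.0147), both genes of excitatory neurons.

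The 7 measured astrocyte markers summed to 3872% to 5917% in blocked cultures of both times, against 4365% to 6955% in untreated cultures. The blocked array had the lower sum in 6 of 6 same-numbered pairs, but the pair of replicate 1 at 26 h was nearly equal (4362% and 4365%). None of the 7 was called in the average (1 lower at an unadjusted p under 0.05). The 8 microglia markers summed to 110.9% to 141.5% in blocked cultures at 9 h, against 88.5% to 101.1% in untreated cultures at 9 h, without overlap. At 26 h they summed to 104.5% to 132.5% in blocked cultures, against 124.2% to 165.2% in untreated cultures. Among the 8, Itgam was well above background on only 5 of the 12 arrays and P2ry12 on 11. Itgam gave 2.27 log2 at 9 h and was not called (limma adjusted p = 0.0934). Cd68 lacked a value on an array of 9 h, and the sum of that array is too low by this gene. The microglia sums are limited by these genes. Of the 8 oligodendrocyte lineage markers, 1 fell in the average, Cspg4 by 0.52 log2 (limma adjusted p = 0.0395), with -1.07 log2 at 9 h and 0.04 log2 at 26 h. At 26 h 2 of the 8 fell, Olig1 by 0.87 log2 and Sox10 by 0.98 log2 (limma adjusted p = 0.0208 and 0.0457). At 9 h Olig1 gave 0.46 log2 and was not called, and Mbp gave 0.26 log2 at 26 h, not called either. The sums of the 8 markers overlapped at both times, with the blocked array lower in 5 of 6 same-numbered pairs. The part of these levels in the member effects was not tested.

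Flrt2, a ligand of UNC5 receptors, was not called for blockade at either time. Its signal was 12.6%, 14.5% and 19.9% in blocked cultures at 9 h, against 14.1%, 18.2% and 18.8% in untreated cultures at 9 h. It was 18.6%, 21.9% and 32.3% in blocked cultures at 26 h, against 17.4%, 16.8% and 24.1% in untreated cultures at 26 h. The groups overlapped at both times, replicate 3 was the highest in each of the 4 groups, and the average effect was 0.08 log2 (limma adjusted p = 0.888).

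Replicate 3 also carried the most signal of 10 measured meningeal, fibroblast and vascular markers. Their sum was 3367% on the array of replicate 3 and at most 572.3% on the others in blocked cultures at 9 h, against 3410% and at most 739.6% in untreated cultures at 9 h. It was 3302% and at most 906.4% in blocked cultures at 26 h, against 2793% and at most 626.9% in untreated cultures at 26 h. Over the 4 groups, replicate 3 exceeded the mean of replicates 1 and 2 by 0.49 log2 for Flrt2 and by 0.44 log2 for Lrrtm3, and the same difference was -0.37 log2 for Flrt3 and -0.23 log2 for Lrrtm2. None of the 10 markers was called in the average with limma (1 higher and 2 lower at an unadjusted p under 0.05), and their part in the member levels was not tested.

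**Figure D3:**
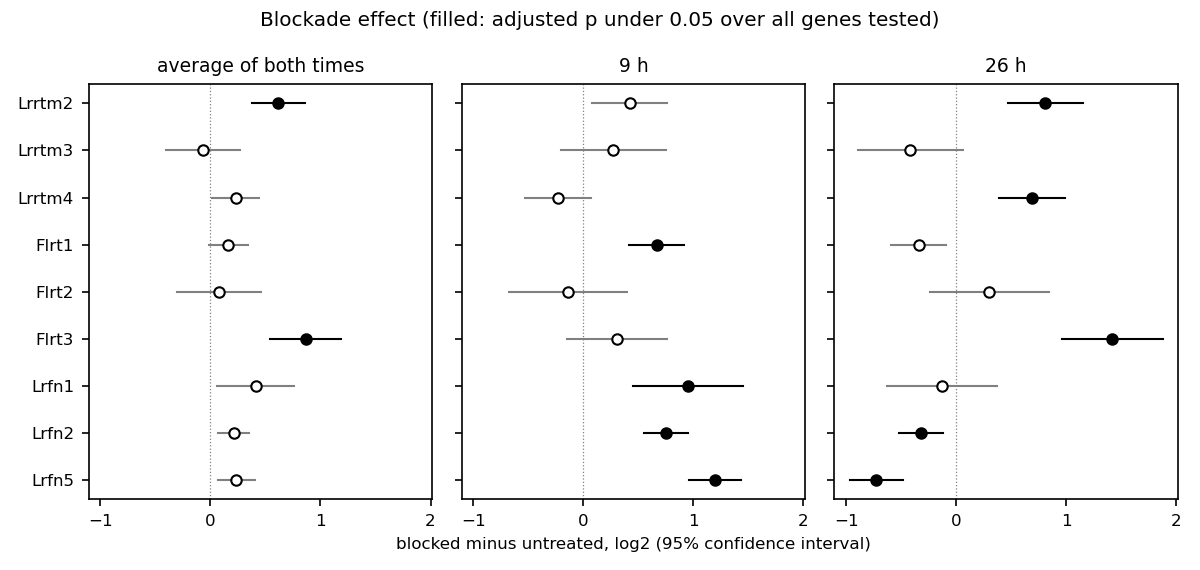
Blockade effect (blocked minus untreated, log2) of each member, averaged over both times and at 9 h and 26 h, with 95% confidence intervals. Filled points have an adjusted p under 0.05 over all targets tested. Flrt3 and Lrrtm2 are filled in the average, and the points of the Lrfn genes lie right of 0 at 9 h and left of 0 at 26 h.

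Time in the experiment changed 3 members when blocked and untreated cultures were averaged, a comparison that is also balanced over scan days. Cultures at 26 h exceeded those at 9 h by 0.68 log2 for Lrrtm4 (SE 0.0954, limma adjusted p = 0.00199), 0.47 log2 for Lrrtm2 (adjusted p = 0.0192) and 0.41 log2 for Lrfn5 (adjusted p = 0.00737). No member fell (1 did at an unadjusted p under 0.05, Lrfn2), and over all targets 4.93% were called higher and 7.78% lower. Flrt2 gave 0.40 log2 (adjusted p = 0.166) and Lrfn2 -0.18 log2 (adjusted p = 0.0899). With the replicate block both were called, at an adjusted p of 0.00806 for Flrt2 and 0.0364 for Lrfn2, which made 5 members in place of 3. That fit called 5687 targets in all, against 2700 in the main fit. Without replicate 1 or without replicate 3, the calls of Lrrtm2 and Lrfn5 were lost (adjusted p = 0.052 to 0.128), and that of Lrrtm2 also in the deposited log2 values (adjusted p = 0.0538). The dimmer probes gave 0.32 log2 for Lrrtm2 (adjusted p = 0.0671) and -0.05 log2 for Lrrtm4 (adjusted p = 0.851). The mean of Lrfn5 went from 13.1% at 9 h to 33.98% at 26 h in untreated cultures, but from 30.15% to 20.5% in blocked ones. In untreated cultures, the brighter probes differed by 0.28 log2 for Lrrtm2 and 0.22 log2 for Lrrtm4, less than the larger SD of the groups. Such changes within untreated or blocked cultures compare arrays of different scan days.

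Of 15 measured ligands and receptors (neurexins, LAR-type phosphatases, latrophilins, glypicans and syndecans), 1 rose and none fell in the average over both times, with a median of -0.01 log2. The gene that rose was Sdc3, a syndecan of neurons, at 0.41 log2 (SE 0.0796, limma adjusted p = 0.0179). None of 6 measured teneurins and UNC5 receptors was called in limma, 1 was higher and 0 lower at an unadjusted p under 0.05, and their median was 0.10 log2.

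Among 29 measured leucine-rich repeat proteins of neurons outside the 10 genes, 4 rose and 2 fell in the average. Rtn4r, the Nogo receptor, rose by 0.88 log2 (limma adjusted p = 3.382e-05), followed by Lrtm2 at 0.63, Lrrn1 at 0.56 and Lrrn2 at 0.52 log2. Amigo2, a homophilic adhesion protein, fell by 0.96 log2 (adjusted p = 0.0391), and Lgi1, a secreted protein that links ADAM receptors with AMPA receptors, fell by 0.53 log2 (adjusted p = 0.0109). The median of these 29 genes was -0.02 log2.

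Of 15 other measured postsynaptic organizers 1 rose in the average over both times, Clstn2, a calsyntenin, at 0.47 log2 (limma adjusted p = 0.0383). Of 12 measured PSD-95 family genes and AMPA receptor partners 1 rose in the same comparison, Gria1, which encodes the AMPA receptor subunit GluA1, at 0.63 log2 (adjusted p = 0.0237). No gene of these 2 lists fell in the average (1 of the organizers and 0 of the AMPA receptor list at an unadjusted p under 0.05), and the median was 0.04 log2 over the organizers and 0.14 log2 over the PSD-95 family and AMPA receptor partners.

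At single times, where groups of different scan days are compared, more of these genes were called. Over all targets 11.4% were called higher and 9.64% lower at 9 h, and 6.88% higher and 9.48% lower at 26 h. Of the 29 leucine-rich repeat proteins outside the 10 genes, 5 rose and 0 fell at 9 h (1 fell at an unadjusted p under 0.05). At 26 h 5 of the 29 rose and 8 fell. At 9 h, 7 of the 15 other organizers rose and none fell (1 at an unadjusted p under 0.05), and at 26 h none rose (1 did at an unadjusted p under 0.05) and 3 fell: Il1rapl1 by 0.73, Il1rap by 0.86 and Igsf9 by 0.93 log2 (limma adjusted p = 0.00705, 0.00832 and 0.0481). Of the AMPA receptor list, Gria1, Gria2 and Cnih2 rose at 9 h by 0.73, 0.59 and 0.78 log2, and Cnih2 fell at 26 h by 0.40 log2. Of the 15 presynaptic partners, Ptprs and Sdc3 rose at 9 h by 0.51 and 0.99 log2, Adgrl3 fell at 9 h by 1.14 log2, and Gpc1 rose at 26 h by 0.44 log2. Of the teneurins and UNC5 receptors, Tenm2, Unc5a and Unc5c rose at 9 h by 0.62, 0.70 and 0.62 log2, and Unc5a and Unc5c fell at 26 h by 0.61 and 0.88 log2. The genes of this paragraph were named after their values were seen.

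**Figure D4:**
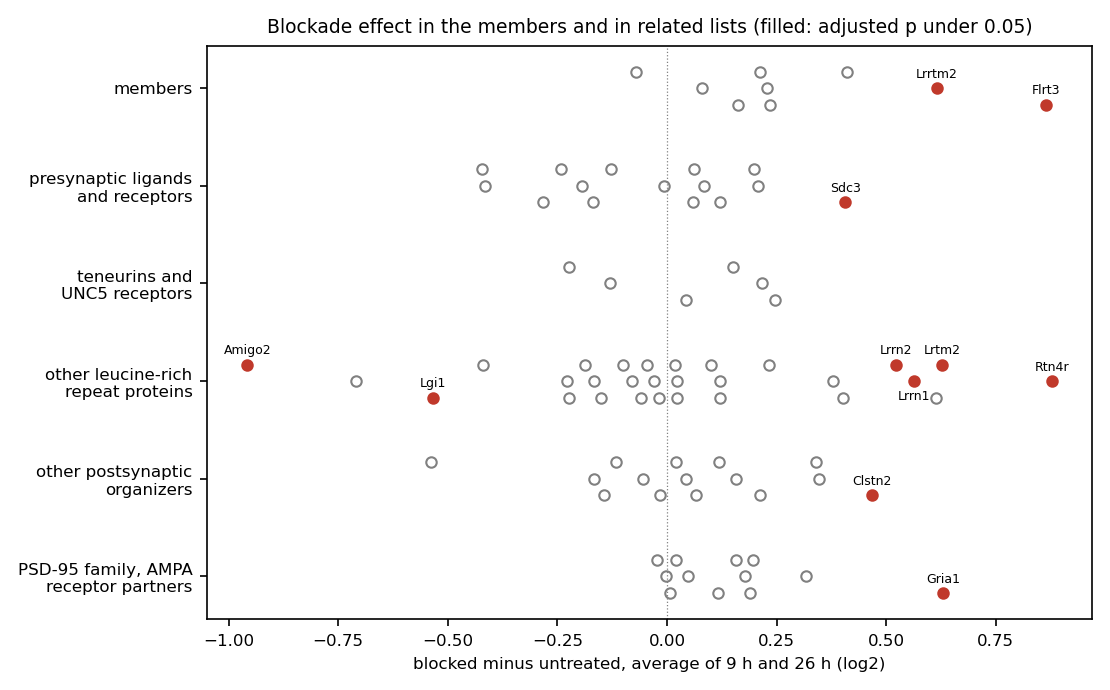
Blockade effect averaged over 9 h and 26 h (blocked minus untreated, log2) of each measured gene of the members and of 5 related lists. Filled and named points have an adjusted p under 0.05 over all targets tested. Flrt3 and Lrrtm2 are the named points among the members, and Amigo2 and Lgi1 the named points left of 0.

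Several members lie inside larger genes in the rat annotation. Lrrtm2 lies within the span of Ctnna1, Lrrtm3 within Ctnna3, Flrt1 within Macrod1 and Flrt3 within Macrod2. Ctnna3, Macrod1 and Macrod2 lie on the strand opposite to the member, and the strand of Ctnna1 was not resolved. The unmeasured Lrrtm1 lies within Ctnna2, which is also on the opposite strand and rose by 0.79 log2 at 26 h (limma adjusted p = 0.0109). Of the genes around measured members, Ctnna1 and Macrod1 were measured. These genes stand outside the rule for named genes and were looked up for their position. Ctnna1, which encodes an α-catenin, gave -0.04 log2 in the average (SE 0.182, limma adjusted p = 0.951), against 0.61 log2 for Lrrtm2. Macrod1 gave 0.67 log2 at 9 h (adjusted p = 0.00882), against 0.67 log2 for Flrt1, and -0.07 log2 at 26 h (adjusted p = 0.794), against -0.34 log2 for Flrt1. Effects at a single time compare arrays of different scan days, and a link between these genes was not tested.

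The genes whose log2 values over the 12 arrays were most like those of Flrt3, among 12344 with a symbol, included Opn4 (r = 0.972) and Dlx1 (r = 0.966). For Lrrtm3, the member with the lowest average effect, they were Bmal2 (r = 0.96), Dffb (r = 0.96) and Plaat5 (r = 0.957). These correlations run over 4 groups on 2 scan days and describe a shared order of arrays. Between Lrrtm2 and Flrt3 the correlation over the 12 arrays was 0.773. Both genes were called higher in the average over these same arrays, so this value is no separate evidence. Other pairs of members had higher values, such as 0.878 between Flrt1 and Lrfn5.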

How the data were processed

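RNA of 12 cultures was measured on single-colour arrays. The processed signal is an intensity that, per the file headers, Feature Extraction 10.5.1.1 (Agilent) had background-subtracted, with no scaling between arrays. The authors also deposited a log2 matrix, which equals log2 of that signal minus a constant per array (slope 1, column medians 7.57 to 7.75). The rule behind that centring is not given in the sources used here.

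Here log2 of the processed signal minus the array's 75th percentile was used. Control spots and 3751 flagged spot values were left out, and spots of a probe were averaged. Of 30367 probes, 24029 were kept because every array of some group read them well above background, and 18004 of the 30367 matched a gene by transcript accession (RefSeq, GRCr8). A gene was read by its brightest kept probe. Between 77.6% and 86.8% of spots per array lay well above background, arrays of a group correlated at 0.985 to 0.994, and the number of arrays limits the precision (median SE of an average effect 0.12 log2).

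All 12 arrays entered 1 limma 3.58.1 model (lmFit, eBayes, R 4.3.3) with a mean per group, and tests were two-sided. The average comparison of this model was tested on simulated data with independent errors. Those data leave out the correlation of same-numbered arrays given below. The members, the related lists and the tests were chosen with earlier results of these data known. Named are all members, and of each related list up to 4 genes per direction past the threshold in the average. Likeness was taken for the member with the largest called rise and, with no called fall, the lowest effect; 1 gene that this rule names is not reported here. Alternatives covered scaling, background, filters, probe choice, blocks, weights and left-out arrays. Same-numbered blocked and untreated arrays of a time correlated, after removal of group means, at 0.177 to 0.657, so the replicate number was taken to pair them within a time. Over all same-numbered arrays the lowest such correlation was -0.04.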

Additional observations from a re-analysis of the deposited data

Results flagged for a closer look

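For 6 of the 9 members the blockade effect at 26 h differed from that at 9 h in the test of the difference (26 h minus 9 h, limma, adjusted over all targets). Over all targets, 28.6% were called in that test. The difference was -1.92 log2 for Lrfn5 (adjusted p = 1.444e-04), -1.08 log2 for Lrfn1 (0.0276), -1.07 log2 for Lrfn2 (4.098e-04), -1.01 log2 for Flrt1 (0.00144), 1.11 log2 for Flrt3 (0.0165) and 0.91 log2 for Lrrtm4 (0.00569). The same sum compares scan days, so time dependence and scan day cannot be told apart. For Lrrtm4 the dimmer probe gave 0.08 log2 (0.839). For Lrfn1 the adjusted p was 0.168 with slide as a random block, and it lay between 0.0515 and 0.0662 without replicate 3 or without any of 7 single arrays: blocked 9 h replicate 2, untreated 9 h replicates 1 and 2, and replicates 2 and 3 of both 26 h groups. Without replicate 3 that of Flrt3 was 0.0515. Lrrtm2 gave 0.39 log2, called without replicate 1 of the untreated 26 h group (0.55 log2, 0.0444), but its dimmer probe gave -1.37 log2, which was called (0.00115). Without the 4 arrays of replicate 2 none of the 6 was called (adjusted p 0.058 to 0.318). For Lrrtm3 the replicate block called a difference of -0.69 log2 (0.00836).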

How the results depend on the processing

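Over 1198 values of single members and comparisons under the alternatives, 1095 kept their direction and side of the threshold, 54 lost a call, 25 gained one and 24 changed sign. The count of members called for the average was 4 with the replicate block, with slide as a random block and with array weights, against 2; the additions were Lrfn2 and Lrfn5. For time it was 5 with the replicate block and with slide as a random block, against 3. Calls over all targets rose as well. For the average they were 2799 with the replicate block, 2993 with slide as a random block and 2149 with array weights, against 945. For time they were 5687 with the replicate block and 6031 with slide as a random block, against 2700. Beyond the calls given in the report and for the difference between times, the replicate block changed none. Without replicates or single arrays, the counts ran from 0 to 2 for the average, 0 to 5 at 9 h, 0 to 5 at 26 h, 0 to 7 for the difference and 0 to 3 for time; each 0 came without replicate 2. Fewer arrays enter these fits. The dimmer probe, an alternative added after seeing the data, turned Lrrtm4 to -0.0711 log2 in the average, -0.0313 at 26 h and -0.0542 for time, and Lrrtm2 to -0.0689 at 26 h and -1.37 for the difference, which the mean of both probes turned to -0.49. Flrt3 for time was 0.0013 log2 with median scaling, and Lrfn1 for time -0.13 with array weights; the cause was not tested. Left-out arrays turned the sign of values near 0: Lrrtm3 average (-0.152 to 0.0187), Flrt2 average (-0.0328 to 0.166), Flrt2 at 9 h (-0.327 to 0.0050), Lrfn1 at 26 h (-0.43 to 0.0764), Flrt3 for time (-0.121 to 0.0418) and Lrfn1 for time (-0.0752 to 0.172). All kept probes of the members were well above background on all 12 arrays. The background correction still changed the size of the Lrfn1 effect. With normexp it was 0.52 log2 at 9 h and 0.16 log2 in the average, against 0.95 and 0.41 log2 in the main fit.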
